A study of Mus musculus with 12 samples.

Results

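The genes described here encode the proteins of the cytosolic ribosome. Members were every gene of the deposited gene table whose symbol is Rpl or Rps followed by a number, with at most 1 trailing a, l or x, together with Rplp0, Rplp1, Rplp2 and Rpsa, while named pseudogenes (-ps) and the S6 kinases (Rps6k) were left out. The rule found 83 of 55487 genes, 51 of the large and 32 of the small subunit, and used no measured value. Of these, 80 exceeded a group mean of 1 FPKM in at least 1 group and were tested, and Rpl3l, Rpl10l and Rpl39l were not. By the annotation, Rpl32l, Rpl6l and Rps4l are pseudogenes although their symbols follow the rule. In any library, transcripts annotated as processed pseudogene held at most 0.00641% of the members' FPKM, and as transcribed processed pseudogene at most 0.00757%. The FPKM of Rps4l therefore lay in transcripts of other kinds. The rule misses some genes that also encode ribosomal proteins, such as Rps3a1 and Fau.

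Each ribosome holds 1 copy of nearly every one of these proteins, so a cell makes them in similar amounts, from some of the most abundant and shortest mRNAs it has. Most of the mRNAs begin with a run of pyrimidines at the cap, the 5′ terminal oligopyrimidine (TOP) tract, through which mTORC1 and the binding protein LARP1 set their translation and stability. Free ribosomal proteins such as those of Rpl5 and Rpl11 bind MDM2 and stabilise p53 when ribosome assembly is disturbed, which links this family to cell stress. In the retina, ganglion cells, the output neurons, are among the cells that excitotoxic NMDA kills.

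The 12 libraries were polyA RNA of whole mouse retina, each pooled from more than 3 retinas, 2 libraries for each of 6 groups. Wild-type (WT) C57BL/6J mice received 1 µL of PBS or of 40 mM NMDA (40 nmol) into the vitreous. JNK3 KO mice were Jnk3-/- animals, which lack the stress kinase encoded by Mapk10, and received the same PBS or NMDA. In the shPax6 groups the PBS or NMDA followed 2 µL of AAV2.7m8 carrying pU6-shPax6-GFP, a vector that expresses a short hairpin RNA against Pax6 from the U6 promoter with a GFP reporter, in mice that were 2 months old. No scrambled-hairpin library was among the 12, so hairpin, virus and second injection cannot be told apart in any shPax6 comparison with WT. The control animals are described as male, and the sex of the others is not given in the sources used here. The study calls its RNA-seq replicates biological, but nothing in the labels says that the 2 libraries of a group came from separate animals. The p-values then measure only the spread between these libraries. Values were FPKM (mapped fragments scaled by transcript length and by the library's total), and the read depth behind each value is unknown.

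Under PBS both targeted genes were lower in their groups than in WT. Pax6 was at 94.56 and 92.84 FPKM in the shPax6 PBS libraries against 173.48 and 177.3 in WT PBS, and Mapk10 at 9.47 and 8.75 in JNK3 KO PBS against 42.79 and 50.72 (limma, adjusted p = 6.04e-05 and 0.0215). After NMDA neither stood below WT in both libraries. Pax6 was then at 55.42 and 53.81 in WT, a fall of 1.68 on the log2 scale (adjusted p = 1.21e-07), and at 67.52 and 58.73 in shPax6, while Mapk10 was at 8.98 and 6 in WT and at 6.65 and 13.77 in JNK3 KO. The 2 WT NMDA libraries stood apart from the rest: their FPKM summed to 805627 and 820180, against 541210 to 576922 in the other 10, their share from mitochondrially encoded genes was 2.98% and 3.02% against 5.91% to 10.2%, and in them the change of a gene depended on its length (described with the lengths of the members).

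Around an annotated start, 30 bases are given for 6 members that have a run of at least 5 pyrimidines over it. These are the protein-coding ones that the rule for named genes picked. The bases are also given for Rpl35 and Rpl27a, which have long runs, and for Rpl41, which has none and rose most in WT. A run was followed to both sides of the start, so its bases before the start are not part of the annotated mRNA. In Rpl39 the run ends at the start, which leaves no tract in the annotated mRNA. The capitals mark the run, the start is base 15, and all are read 5′ to 3′ on the strand of the gene (RefSeq, GRCm38.p6). They lie at chr4:86857352-86857381 (minus) for Rps6, chr7:141447637-141447666 (plus) for Rplp2, chr11:114668566-114668595 (plus) for Rpl38, chr14:24490664-24490693 (plus) for Rps24, chr3:90213633-90213662 (minus) for Rps27 chrX:37085207-37085236 (minus) for Rpl39, chr2:39005116-39005145 (minus) for Rpl35, chr7:109519181-109519210 (plus) for Rpl27a and chr10:128549153-128549182 (minus) for Rpl41.
Rps6: agcggaagtcgggCCTCTTTTTCgtgacgc
Rplp2: gcgtcagcgTCTTCCTTTCgccgccggacg
Rpl38: gcggaagcctcgTTCTTTCCCCgttctctt
Rps24: ccgcgctggggTCCTTCCTTgcgcgttgat
Rps27: tttccgctttcgCTCCTTTCCggcggtgac
Rpl39: ctaagctccgCCTCTagcgacttcttctaa
Rpl35: ggccccgCCCTTTCCTCTTTCTCTCgaacc
Rpl27a: acttcgtgagCTCCTCCCTTTTCCCTTTCT
Rpl41: acacgggccggctcggaagtgacgacaccg

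A promoter of 250 bases before to 50 after the start was given for 61 members and for 27025 genes in all. A pyrimidine run of at least 5 covered the annotated start in 19 of the 61 members (31.1%) and in 9.95% of all genes, so most members did not have it in this annotation. The letters CCGGAAG, a core site of ETS factors, stood on either strand in 24 member promoters (39.3%) against 9.12% of all, and ATGGCGG, a site of YY1, in 9 (14.8%) against 4.19%. The letters TGANTCA, bound by AP-1, the factor that JNK kinases activate, stood in 2 member promoters (3.3%), those of Rpl22 and Rpl9, against 7.93% of all. An annotated start can lie some bases from the true cap site, and runs that lay mostly before the start were also counted. The share with a run at the start thus counts annotations and not measured caps or TOP tracts.

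Under PBS the members were already among the most abundant mRNAs of the WT retina. They made up 5.79% and 6.06% of all FPKM in the WT PBS libraries and held 19 and 20 of the 100 highest places. After NMDA the WT shares were 17.3% and 17.7%, with 53 and 52 of the 100 highest places. In shPax6 the shares were 6.11% and 5.72% under PBS and 7.7% and 8.07% after NMDA, and in JNK3 KO they were 7.3% and 6.99% under PBS and 7.57% and 7.47% after NMDA. The WT NMDA libraries lay far above the other 10, shPax6 NMDA lay above shPax6 PBS without overlap, and the JNK3 KO groups stood close together without overlap. The summed FPKM of the large subunit was 1.25 to 1.27 times that of the small subunit in the 6 PBS libraries and 1.28 to 1.3 times in the 6 NMDA libraries, a small difference without overlap. In bulk tissue, more cells with a high ribosomal protein content and more such mRNA per cell cannot be told apart.

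**Figure D1:**
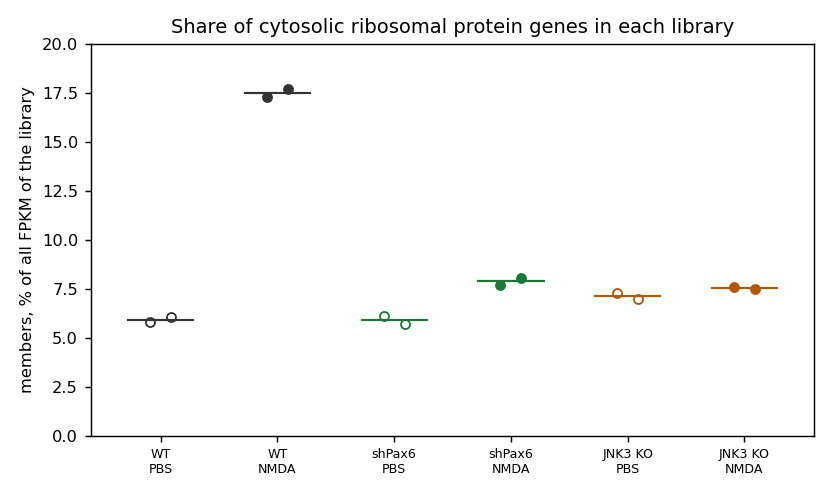
Share of each library's total FPKM that came from the 83 members (y axis, percent). Each point is 1 library and each line the mean of 2 (open points PBS, filled points NMDA); the WT NMDA libraries sit at 17.3% and 17.7%, the other 10 between 5.72% and 8.07%.

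The first comparison asked how the members responded to NMDA in the WT retina. Of the 80 tested, 79 rose and 0 fell (limma on log2(FPKM + 0.1), adjusted p under 0.05 over 16471 genes), where 26.0% of all genes tested rose and 33.8% fell. At an unadjusted p under 0.05 the counts were also 79 and 0. The median log2 fold change was 2.09, or 4.27-fold, with the middle of the members between 1.91 and 2.31, and the median of all genes was -0.09. All 80 had a fitted change above 2-fold and 51 above 4-fold, while the shares of all genes above these folds were not counted. For 79 members both WT NMDA libraries exceeded all 10 other libraries, which held for 23.3% of all genes. The exception was Rpl32l, a pseudogene listed at 0.18 and 0.33 FPKM under PBS and 0.16 and 2.18 after NMDA (log2 fold change 1.15 ± 1.24 SE, adjusted p = 0.455). Rpl32l passed the filter only through its WT NMDA mean of 1.17 FPKM, so its place above 2-fold rests on that choice.

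Rps6, the protein that S6 kinase phosphorylates when mTORC1 is active, rose in WT from 390.45 and 413.97 FPKM to 1461.17 and 1508.34. The groups were far apart and the log2 fold change was 1.88 ± 0.05 SE (limma, adjusted p = 1.45e-08). Rpl41, which encodes the smallest ribosomal protein, made the largest rise, from 675.56 and 718.8 to 4634.05 and 5063.85 FPKM (2.80 ± 0.06, adjusted p = 1.45e-08). Rpl36, of the large subunit, followed it, from 335.17 and 368.27 to 2192.09 and 2252.31 FPKM (2.66 ± 0.09, adjusted p = 5.67e-08). The highest level of any member in this group was that of Rpl13a, a large-subunit protein that can also leave the ribosome to silence inflammatory mRNAs, at 5501.97 and 5755.17 FPKM from 1095.79 and 1140.72, although Rplp1 overlapped it. In each of these 4 genes the lower NMDA library was over 3 times the higher PBS library.

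The stalk of the large subunit, which recruits the translation GTPases, is built on Rplp0 with Rplp1 and Rplp2. Rplp1 had 1055.39 and 1104.64 FPKM without NMDA in WT and 5470.62 and 5716.34 with it, a log2 fold change of 2.37 ± 0.05. Rplp2 went from 296.73 and 310 to 1854.22 and 1946.02 FPKM (2.65 ± 0.10), and Rplp0 from 279.84 and 288.47 to 1037.94 and 981.24 FPKM (1.83 ± 0.07). All 3 passed the test (adjusted p from 1.45e-08 to 9.98e-08) and their order of level per length, Rplp1 above Rplp2 above Rplp0, was the same in both groups.

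The members tied to p53 and to disease all rose, from 1.53 to 2.46. Rpl11 and Rpl5, which together with the 5S rRNA bind MDM2, had log2 fold changes of 2.23 ± 0.06 and 1.53 ± 0.09 (adjusted p = 2.09e-08 and 9.96e-07). Rps19 and Rps24, mutated in Diamond-Blackfan anaemia, stood at 2.46 ± 0.09 and 1.95 ± 0.06 (7.63e-08 and 4.05e-08). Rpsa, also known as the laminin receptor, stood at 2.34 ± 0.05 and Rps27a, a fusion of ubiquitin with a ribosomal protein, at 2.07 ± 0.05 (both 1.45e-08). Rpl38, needed for translating Hox mRNAs in the embryo, stood at 2.52 ± 0.10 and Rpl10, which completes the large subunit in the cytoplasm, at 1.66 ± 0.05 (8.47e-08 and 3.54e-08). Every one of these values is relative to libraries scaled as deposited. With each library rescaled to the same FPKM total (TPM) the median of all genes became -0.66 and that of the members 1.52. Such a rescaling moves all genes of a library alike, so the gap of 2.18 between both medians had to stay and was not tested by it. Quantile normalization gave a member median and a gap of 0.81, with 75 rising where 26.8% of all genes rose, and a correction for gene length a gap of 1.0.

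**Figure D2:**
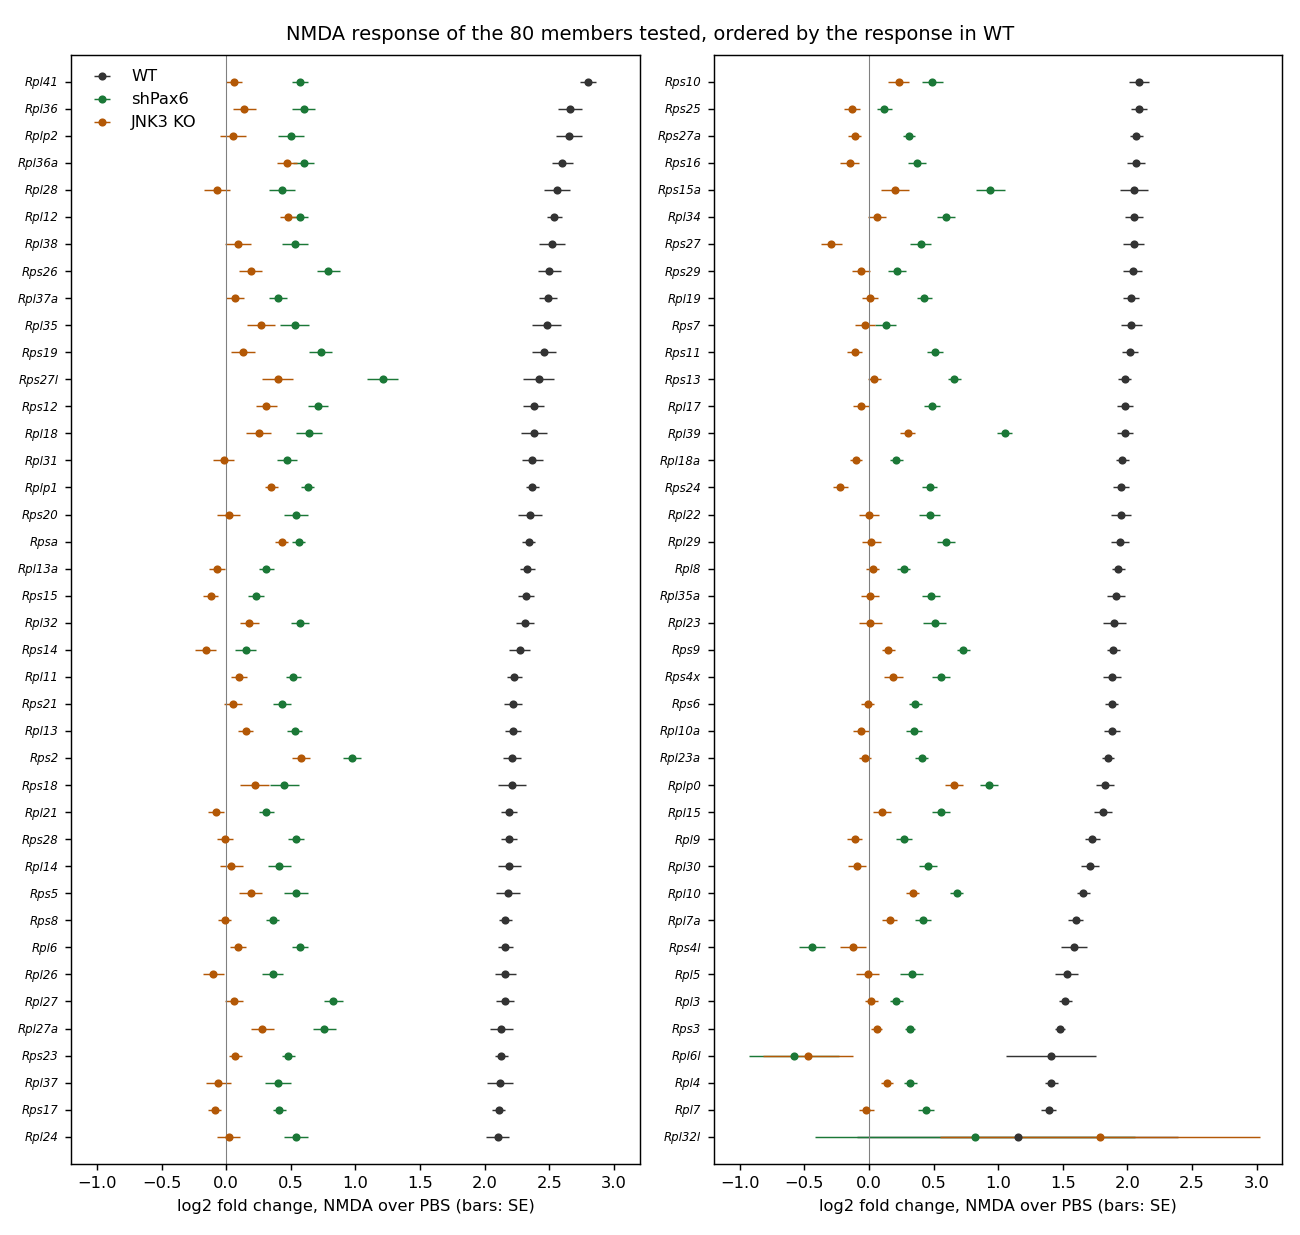
Log2 fold change of NMDA over PBS (x axis) for the 80 members tested, in WT, shPax6 and JNK3 KO retina, with bars of 1 SE, ordered by the WT value over both panels. The WT points run from 1.15 (Rpl32l) to 2.80 (Rpl41), and all but that of Rpl32l lie to the right of the other points of the same gene.

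The second comparison was the NMDA response after the knockdown of Pax6. Of the 80 members, 74 rose and 1 fell, with backgrounds of 19.1% and 11.0% of all genes, and the median log2 fold change was 0.48 (1.40-fold) against 0.10 for all genes. Only 2 members had a fitted change above 2-fold. Rps27l, a paralog of Rps27 that p53 induces, rose most, from 42.9 and 34.24 FPKM to 87.16 and 90.4 (1.21 ± 0.12 SE, limma, adjusted p = 0.000114). Rpl39, a small protein at the peptide exit tunnel, rose from 189.8 and 175.07 to 361.44 and 392.23 FPKM (1.05 ± 0.06, adjusted p = 5.56e-06). In both genes the NMDA libraries were well above the PBS libraries. Rps6 moved less, from 411.64 and 401.05 to 519.23 and 526.97 FPKM (0.36 ± 0.05, adjusted p = 0.000411), and Rpl41 from 955.94 and 889.6 to 1347.56 and 1387.37 (0.57 ± 0.06, adjusted p = 0.000186). The member that fell was Rps4l, a pseudogene copy of a small-subunit gene, from 56.73 and 62.52 to 42.65 and 45.39 FPKM (-0.44 ± 0.10, adjusted p = 0.00914). Rps14 did not pass the test (0.15 ± 0.08, adjusted p = 0.167), nor did Rpl6l, Rpl32l, Rps7 and Rps25. With the spread taken from the shPax6 libraries alone 26 members rose, with quantile normalization 48 and with a correction for gene length 41. The shares of all genes that rose were then 4.1%, 13.1% and 13.7%. Under the p and fold thresholds of the study (unadjusted p under 0.05 and more than 2-fold), applied to these limma fits, 2 rose. The fall of Rps4l was lost without shPax6 PBS replicate 2 or shPax6 NMDA replicate 1.

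The third comparison was the NMDA response in JNK3 KO. Here 9 members rose and 1 fell, with backgrounds of 4.33% and 6.1% of all genes, and the median log2 fold change was 0.04 against -0.01 for all genes. The 9 were Rplp0, Rps2, Rpl12, Rpl36a, Rpsa, Rplp1, Rpl10, Rps12 and Rpl39. Rplp0 stood at 168.25 and 153.13 FPKM under PBS and 255.18 and 250.56 after NMDA (0.66 ± 0.07 SE, limma, adjusted p = 0.000821), and Rps2, near the mRNA entry site, at 457.21 and 435.43 and then 699.58 and 632.53 (0.58 ± 0.07, adjusted p = 0.0013). Rps27 fell, from 922.3 and 911.21 to 748.22 and 754.3 FPKM (-0.29 ± 0.08, adjusted p = 0.0446), a call that was lost when any library of WT or JNK3 KO was left out. Rps6 stood at 533.39 and 499.45 under PBS and 510.22 and 511.85 after NMDA, where the NMDA values lay between the PBS values (-0.01 ± 0.05, adjusted p = 0.91). The count of members that rose was lower without JNK3 KO NMDA replicate 2. It was 32 with a correction for gene length, 21 with quantile normalization and 18 with TPM that left out mitochondrially encoded genes. The shares of all genes that rose were then 3.43%, 5.35% and 6.06%.

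The 3 responses share no libraries, but the spread of each gene was estimated from all 12. The differences of the responses were tested in the same model, and both differences from WT use the same WT libraries. The response of WT exceeded that of shPax6 in 79 members and fell short in 0 (backgrounds 18.3% and 31.4%), with a median difference of 1.66 in log2 fold change against -0.28 over all genes. The response of WT exceeded that of JNK3 KO likewise in 79 and 0 members (23.5% and 27.9%), with a median difference of 2.06 against -0.03. With a correction for gene length the 2 member medians were 0.85 and 0.81, against 0.03 and 0.06 over all genes. With quantile normalization they were 0.53 and 0.65, against -0.01 and 0.0. At an unadjusted p under 0.05 the counts in both comparisons were also 79 and 0 by limma, and quantile normalization gave 2 members with a smaller response in WT in each. Rpl41 held the largest difference in both, 2.23 ± 0.09 and 2.74 ± 0.09 SE (adjusted p = 8.21e-07 and 2.58e-07). Between the other two, shPax6 exceeded JNK3 KO in 55 members and fell short in 0 (12.1% and 5.62%; at an unadjusted p 71 and 1), with a median difference of 0.41 against 0.10. Rps27l led, with 0.81 ± 0.17 (adjusted p = 0.0129). The count of 55 was lower without JNK3 KO PBS replicate 1 or either JNK3 KO NMDA replicate. With a correction for gene length it became 2 larger and 5 smaller (7.15% and 5.74% of all genes). The median was then -0.01, so the direction did not survive that correction.

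**Figure D3:**
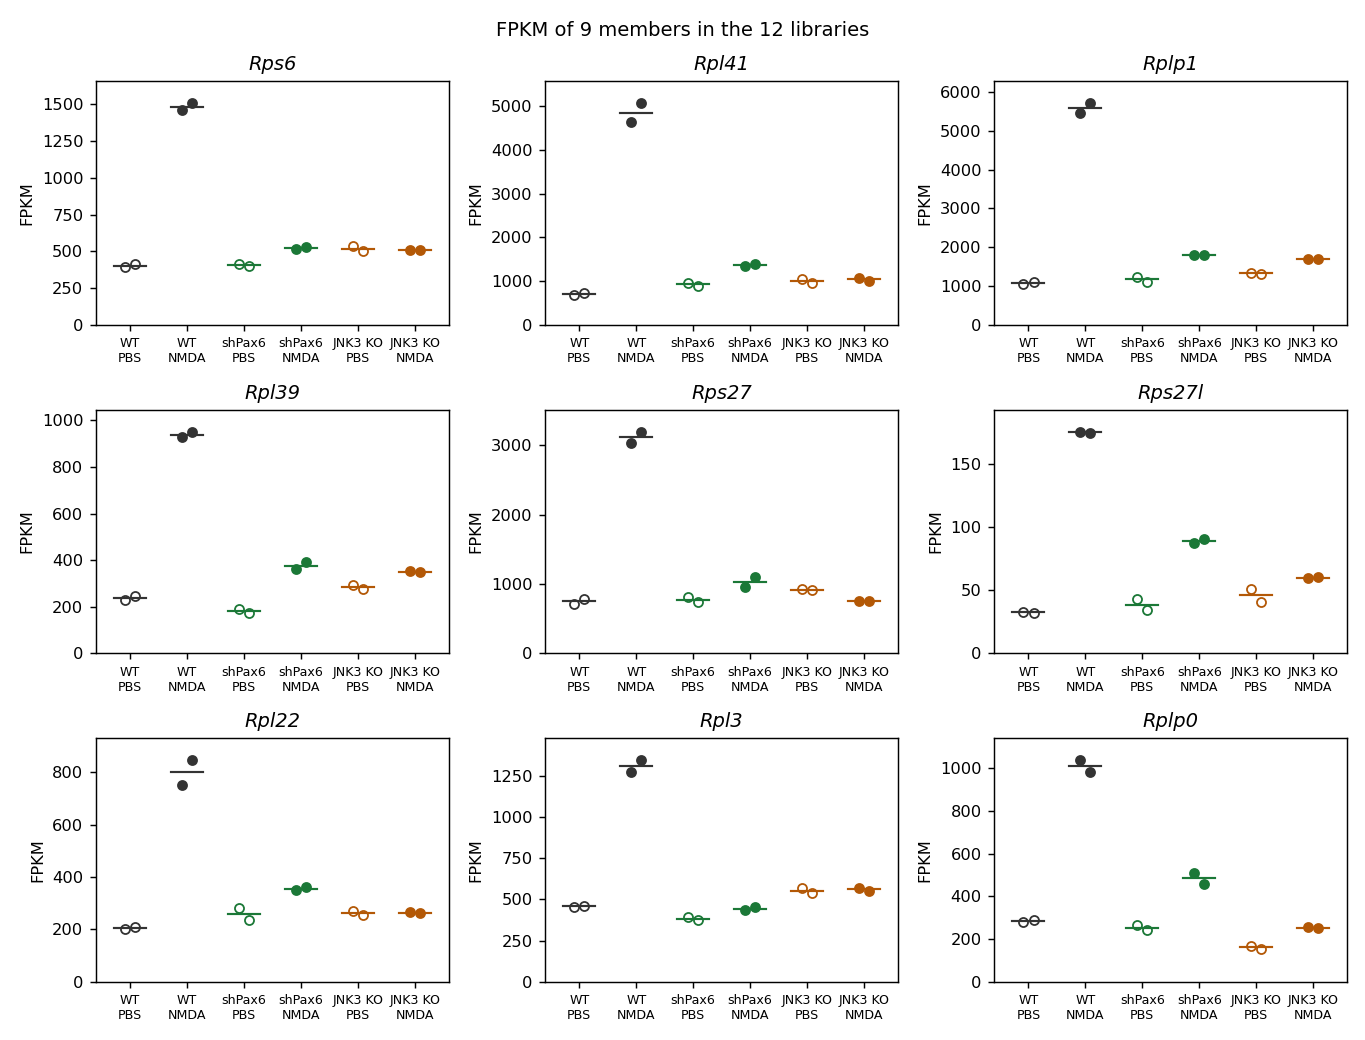
FPKM (y axis, from 0, with its own scale in each panel) of 9 members in the 12 libraries, 1 point a library and a line at the mean of 2 (open points PBS, filled points NMDA). In all 9 the WT NMDA libraries are highest; Rps27l and Rpl39 stand out in shPax6 NMDA, and Rplp0 is lowest in JNK3 KO PBS.

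Under PBS the shPax6 and WT retinas differed little in these genes. With 5 members higher and 5 lower in shPax6 (backgrounds 5.36% and 11.2%), the median difference was 0.02 on the log2 scale against -0.06 for all genes. The higher ones were Rps14, Rpl41, Rpl22, Rpl31 and Rps15. Rps14, of the small subunit, stood at 663.7 and 612.61 FPKM against 474.57 and 469.4 in WT (0.43 ± 0.08 SE, limma, adjusted p = 0.00534). Rpl22, whose protein represses its paralog Rpl22l1, stood at 280.42 and 237.02 against 203.38 and 208.97 FPKM (0.32 ± 0.08, adjusted p = 0.0282). The lower ones were Rpl39, Rpl3, Rpl4, Rps24 and Rps27a. Rpl39 stood at 189.8 and 175.07 against 228.26 and 246.48 FPKM (-0.38 ± 0.06, adjusted p = 0.00376), and Rpl3, at the peptidyl transferase centre, at 391.41 and 375.92 against 453.32 and 461.45 (-0.25 ± 0.05, adjusted p = 0.00579). These groups did not overlap, but the counts changed with most choices. Leaving out WT PBS replicate 1 or 2 gave 2 and 1 higher, leaving out shPax6 PBS replicate 1 or 2 gave 2 and 9, and either JNK3 KO NMDA library gave 3, while the lower count was 1 without WT PBS replicate 2, 3 without shPax6 PBS replicate 2 or either JNK3 KO NMDA library, and 20, with 2 higher, under quantile normalization. Under TPM the counts were 5 higher and 9 lower. Of all genes, 4.64% were higher and 12.1% lower under TPM, and 6.88% and 9.32% under quantile normalization. Marker lists differed more between these groups. Ganglion cell markers summed to 257 to 262 FPKM in shPax6 PBS and 734 to 758 in WT PBS (9 of 16 lower), and rod markers to 43400 to 46600 and 32500 to 32800 (14 of 14 higher). Müller glia markers summed to 2930 to 3110 and 1920 to 1990, with 4 of 11 higher and 2 lower. Of 16 microglial and macrophage markers 6 were higher and 6 lower, and of 17 lens genes tested 0 and 6. Neutrophil markers summed to 509 to 519 and 1000 to 1060 and erythrocyte markers to 28.7 to 50.3 and 97.3 to 107; their part in these differences was not tested.

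Between JNK3 KO and WT under PBS, 33 members were higher in JNK3 KO and 1 was lower, with backgrounds of 1.1% and 0.407% of all genes, and the median difference was 0.34 (1.26-fold) against 0.00 for all genes. For 77 of the 80 both JNK3 KO libraries exceeded both WT libraries, which held for 27.0% of all genes tested. Rpl41 led, at 1036.88 and 961.21 FPKM against 675.56 and 718.8 (0.52 ± 0.06 SE, limma, adjusted p = 0.0085), and Rpsa stood at 696.61 and 652.59 against 481.25 and 510.55 (0.44 ± 0.05, adjusted p = 0.007). Rps6 stood at 533.39 and 499.45 against 390.45 and 413.97 FPKM (0.36 ± 0.05, adjusted p = 0.0104). The shift was small in each gene, and many stood near the threshold: 76 were higher at an unadjusted p under 0.05. The count of 33 was 0 without WT PBS replicate 1 or JNK3 KO PBS replicate 1, 7 without WT PBS replicate 2, 9 without JNK3 KO PBS replicate 2, 3 without either JNK3 KO NMDA library, 22 without both WT NMDA libraries, 2 with quantile normalization or a correction for gene length, and 0 with the spread of these 4 libraries alone. The median stayed positive in all of these, between 0.14 and 0.39. Of all genes, 0.261% were higher with quantile normalization and 0.395% with the length correction.

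The single member lower in JNK3 KO was Rplp0, at 168.25 and 153.13 FPKM against 279.84 and 288.47 in WT PBS (-0.82 ± 0.07 SE, limma, adjusted p = 0.00264). A processed pseudogene of Rplp0, Gm8730 (ENSMUSG00000063696, chromosome 8, 102864845 to 102865798 of GRCm38, minus strand), had the opposite pattern. It was at 181.89 and 177.84 FPKM in JNK3 KO PBS and 269.07 and 271.9 in JNK3 KO NMDA, but between 0.18 and 1.34 in 7 of the 8 other libraries and at 22.25 in WT NMDA replicate 2. Rplp0 itself lies on chromosome 5, 115559467 to 115563727. Copies by sequence (at least 95% identity over at least 80% of the shorter transcript) held 57.96% and 57.09% of the summed Rplp0 signal in the JNK3 KO groups and 0.22% to 1.68% in the others. With the copies added, Rplp0 was higher in JNK3 KO (0.42 ± 0.06, adjusted p = 0.0214), the sign of most other members, and its NMDA response in JNK3 KO was 0.63 ± 0.06. How RSEM divided reads between the gene and its near-identical copy sets these values, and whether the copy is transcribed or differs in sequence in these animals was not tested.

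**Figure D4:**
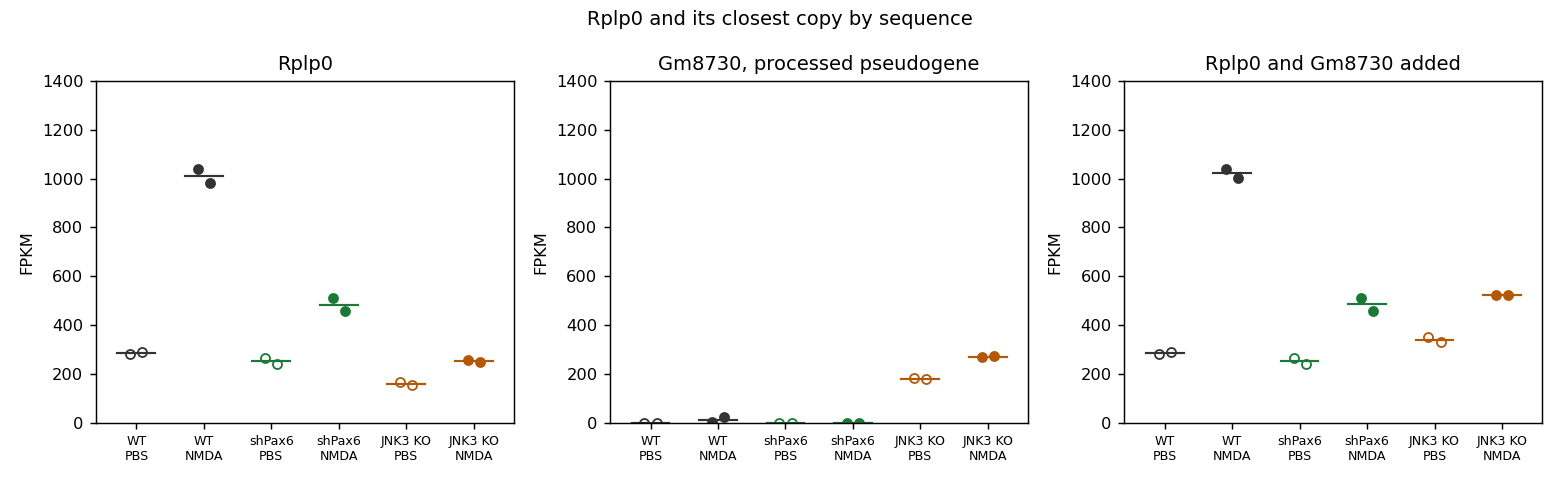
FPKM (y axis, from 0) of Rplp0, of its processed pseudogene Gm8730 and of their sum in the 12 libraries, 1 point a library and a line at the mean of 2 (open points PBS, filled points NMDA). Gm8730 is at 177.84 FPKM or above in the 4 JNK3 KO libraries and at 22.25 or below in the other 8; the sum is no longer lower in JNK3 KO.

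Such copies matter for other members too. In all, 71 members had at least 1 near-identical copy, 562 genes in all, but the copies held a median of 1.16% of the joint signal. In 6 members the share was above 20%: Rpl6l (81.1%), Rpl27a (59.9%), Rpl27 (59.6%), Rpl5 (51.7%), Rpl35 (28.4%) and Rps28 (22.1%). The levels and changes of these members are therefore uncertain one by one. Adding the copies left 79 members higher in WT with a median of 2.06.

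Of the symbols ending in l, 4 belong to paralogs with their own biology, and 3 of these were near 0. Rpl3l, the form of Rpl3 made in muscle, was listed at 0 to 0.71 FPKM, Rpl39l, a form known from the testis, at 0 to 0.45, and Rpl10l, the testis form of Rpl10, at 0 in all 12 libraries, while their partners Rpl3, Rpl39 and Rpl10 lay between 175.07 and 1351.15. Rps27l was the exception, at 32.91 and 32.11 FPKM in WT PBS and 175.33 and 174.63 in WT NMDA (2.42 ± 0.12 SE, limma, adjusted p = 3.79e-07). In WT its partner Rps27 rose by 2.05 ± 0.08 from 717.85 and 782.04 FPKM, and in JNK3 KO Rps27l had 0.40 ± 0.12 (adjusted p = 0.0744) where Rps27 fell. Of the pseudogenes, Rpl6l rose in WT from 1.83 and 1.65 to 4.57 and 5.03 FPKM (1.41 ± 0.35, adjusted p = 0.00644), and Rps4l from 48.74 and 47.92 to 160.91 and 131.06 (1.59 ± 0.10, adjusted p = 1.21e-06).

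The members are short, and in WT after NMDA length and change went together across all genes. The spliced length of the 80 tested members ran from 346 to 1523 bases with a median of 664, and 70 were under 1000. Among other genes under 500 bases the median WT response was 0.00 and 17.5% rose, against a median of 2.20 for the 12 members of that length. From there on the response fell with length. Among other genes of 500 to 1000 bases the median WT response was 1.16 in log2 fold change and 51.5% rose, among those of 1000 to 2000 bases it was 0.52, of 2000 to 4000 bases -0.32 and above 4000 bases -1.17. Members of 500 to 1000 bases (n = 58) had a median of 2.09 and those of 1000 to 2000 bases (n = 10) 1.68, above the upper quartile of other genes of the same length, 1.65 and 1.01. Across 16443 genes Spearman's rho between length and the WT response was -0.56, and across the 80 members -0.43; genes share libraries and are not independent replicates. In shPax6 rho across all genes was -0.17 and in JNK3 KO 0.23. For JNK3 KO against WT under PBS it was -0.36, with class medians of other genes from 0.19 at 500 to 1000 bases to -0.18 above 4000 bases, and that trend lies in the comparison where 33 members were higher. With the length trend removed from each library, 78 members still rose in WT, against 23.8% of all genes. The member median was 1.01 in place of 2.09, and the medians in shPax6 and JNK3 KO were 0.20 and 0.18. Whether the length trend arose in the tissue or in the RNA and libraries was not tested.

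**Figure D5:**
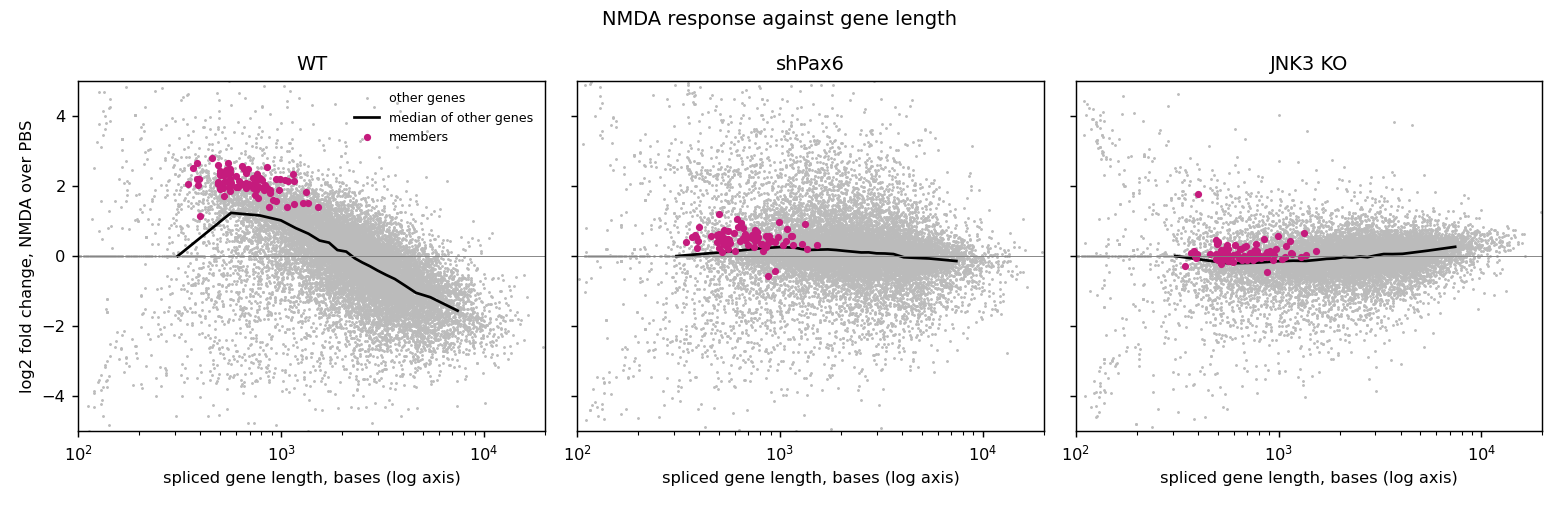
Log2 fold change of NMDA over PBS (y axis, cropped at -5 and 5) against spliced gene length in bases (log axis) for other genes (grey), their median in bins of length (line) and members (colour), in WT, shPax6 and JNK3 KO. In WT the members lie above the line. By length class, the WT median of other genes was 0.00 under 500 bases, 1.16 at 500 to 1000 and -1.17 above 4000. In the other 2 panels the class medians lie between -0.18 and 0.21.

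Transcripts of several kinds rose in WT. Protein-coding ones held 86.6% and 86.4% of the members' FPKM in WT NMDA and 88.2% to 89.5% in the other 10 libraries. Of 190 tested, 122 rose and 4 fell in WT, with a median of 1.99, where 14.0% of 28245 coding transcripts of all genes rose and 27.0% fell. In shPax6 64 rose and 0 fell (4 at an unadjusted p under 0.05; 5.88% and 4.72% of all), and in JNK3 KO 5 and 1 (0.811% and 1.09%). Forms annotated for nonsense-mediated decay, which degrades mRNAs with an early stop, held 4.54% and 4.7% in WT NMDA against 3.25% to 3.95%, and 12 of 19 rose in WT and 0 fell (by limma, 15 and 0 at an unadjusted p under 0.05; 10.7% and 15.8% of all such transcripts), with a median of 2.46. Retained-intron forms held 5.89% and 5.87% of the signal in WT NMDA against 4% to 5.13% in the other 10 libraries, and 33 of 151 rose and 4 fell in WT (7.41% and 24.3% of all retained-intron transcripts), with a median of 1.02 against -1.21 over all of them.

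Genes that work with the ribosome were counted in lists written with earlier results of these data known. Over all genes tested 26.0% rose and 33.8% fell in WT, 19.1% and 11.0% in shPax6, and 4.33% and 6.1% in JNK3 KO. Of the ribosomal proteins outside the naming rule, Fau, Rack1 and Rps3a1 rose in WT, by 2.29, 2.06 and 1.71 in log2 fold change, and in shPax6, by 0.34, 0.51 and 0.46. Paralogs outside the rule, such as Rpl36al (2.21 ± 0.11 SE) and Rpl22l1 (1.03 ± 0.12), also rose in WT, 4 of 4. In JNK3 KO Fau fell (limma; -0.34, adjusted p = 0.0344), Rack1 and Rps3a1 did not pass the test (0.20 and 0.04, adjusted p = 0.196 and 0.756), and 0 of the 4 paralogs rose by limma, also at an unadjusted p under 0.05. Of 24 other RNAs known to carry a TOP tract, 22 rose and 1 fell in WT, 17 and 0 moved in shPax6 and 7 and 1 in JNK3 KO, with medians of 1.19, 0.38 and 0.16. Among them the subunits of elongation factor 1, Eef1d (2.29), Eef1b2 (2.08) and Eef1g (1.87), stood near the members, while Eef2, which moves the ribosome along, stood at 0.26 and Eif4b fell (-0.57 ± 0.06, adjusted p = 5.08e-05). The median length of this list was 1303 bases, above the 664 of the members.

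Lists further from the ribosome ranged in WT from mixed to one-sided. The shares of all genes that rose and fell were 26.0% and 33.8% in WT, 19.1% and 11.0% in shPax6, and 4.33% and 6.1% in JNK3 KO. In WT, elongation factors gave 7 higher and 1 lower of 11 (median 0.93), initiation factors 24 and 8 of 39 (0.66), ribosome biogenesis 61 and 6 of 102 (0.64), and the control of mTORC1 and of TOP mRNAs 7 and 16 of 32 (-0.18). The list for stalled and collided ribosomes gave 6 and 7 of 22 (0.01), near the shares over all genes. Mitochondrial ribosomal proteins, which share no subunit with the cytosolic ribosome but are also short (median length 983 bases), gave 72 and 0 of 78 (1.34), and nuclear genes of the respiratory chain (674 bases) 83 and 0 of 87 (1.52), with the same counts at an unadjusted p under 0.05. In shPax6 the mitochondrial ribosomal proteins gave 14 and 1 and the respiratory chain 18 and 0, and in JNK3 KO 0 and 0 and then 0 and 25 (at an unadjusted p 3 and 6, and 0 and 52).

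Markers of other cells moved with the groups. For the counts below, the shares of all genes that rose and fell were 26.0% and 33.8% in WT, 19.1% and 11.0% in shPax6, and 4.33% and 6.1% in JNK3 KO. Summed FPKM of 12 neutrophil markers was 1000 to 1060 in WT PBS and 2890 to 2910 in WT NMDA, 509 to 519 and 2080 to 2100 in shPax6, and 747 to 757 and 147 to 155 in JNK3 KO, and of 11 tested 7 rose in WT, 7 rose in shPax6 and 6 fell in JNK3 KO. For 16 microglial and macrophage markers the sums were 271 to 292 and 547 to 567 in WT, 287 to 312 and 1190 to 1210 in shPax6, and 262 to 277 and 196 to 202 in JNK3 KO, with 10, 12 and 1 that rose and 5, 0 and 7 that fell. For 5 erythrocyte markers they were 97.3 to 107 and 613 to 650 in WT, 28.7 to 50.3 and 120 to 126 in shPax6, and 123 to 126 and 69.4 to 79.7 in JNK3 KO, with 5, 4 and 0 that rose. The sums of these lists were thus higher after NMDA in WT and shPax6 and lower in JNK3 KO, without overlap of libraries. Lens genes (19 in the file) summed to 291 to 294 and 873 to 889 in WT, 232 to 241 and 655 to 660 in shPax6, and 297 to 318 and 457 to 471 in JNK3 KO, and of 17 tested 11, 4 and 4 rose. Ganglion cell markers summed to 734 to 758 and 399 to 409 in WT, 257 to 262 and 94.2 to 99.1 in shPax6, and 694 to 736 and 219 to 221 in JNK3 KO, and 14, 12 and 9 of 16 fell. Ganglion cell markers thus fell in all 3 kinds of retina. Müller glia markers summed to 1920 to 1990 and 2460 to 2490 in WT, 2930 to 3110 and 4620 to 4910 in shPax6, and 1970 to 2020 and 2030 to 2040 in JNK3 KO, with 3, 6 and 4 of 11 that rose and 7, 2 and 3 that fell. Of 14 rod markers 8, 1 and 1 rose and 4, 13 and 11 fell, and of 5 tested retinal pigment epithelium markers 1, 0 and 0 rose and 1, 4 and 0 fell, with sums of 40.6 to 46.4 and 62 to 63.9 in WT, 43.3 to 47.2 and 7.95 to 12.2 in shPax6, and 30.8 to 33.7 and 39.1 to 39.2 in JNK3 KO. Müller glia markers had a median log2 fold change of -0.37, 0.53 and 0.30 in the 3 responses, rod markers of 0.30, -0.70 and -0.35, and retinal pigment epithelium markers of -0.46, -2.37 and 0.31. The part of any of these cells in the members' changes was not tested. Rod markers summed to at least 26600 FPKM in every library, as a retina label asks for, and no marker of these lists was at 0 in all 12 libraries.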

How the data were processed

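PolyA RNA of mouse retina was sequenced as paired reads from TruSeq libraries. The authors mapped reads to GRCm38.p6 and deposited FPKM for genes and for transcripts; the submitters' processing notes name STAR 2.7.1a, RSEM 1.3.3, edgeR 3.36.0 and R 4.1.0. Every column of both tables was matched to 1 of the 12 samples. RSEM shares reads between near-identical genes by estimate, and FPKM is scaled by a library's own total, so a few abundant genes shift all others. Without counts, the depth behind a value is unknown and no interval from counting can be given.

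From there, log2(FPKM + 0.1) of the 16471 genes whose mean exceeded 1 FPKM in any of the groups was fitted with limma 3.58.1 in R 4.3.3: 6 group means, all 12 libraries, 6 residual degrees of freedom, an intensity trend, two-sided tests, Benjamini-Hochberg adjustment over all genes and calls at an adjusted p under 0.05. A fold change on this scale understates changes of low genes. Transcripts (49940) were fitted alike. Lengths and positions came from GENCODE M21, which matched 99.38% of genes and all 83 members; gene length is the mean transcript length weighted by FPKM. Copies were found with BLAST+. The model was run on simulated data with independent noise, few changed genes and no length trend. That run cannot speak for the conditions of the WT NMDA libraries. FPKM are not counts, so no count test was run.

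The members and the gene lists were chosen with earlier results of these data known. Named genes were members with known roles (Rps6, Rplp0, Rplp1, Rplp2, Rpsa, Rpl13a, Rpl5, Rpl11, Rps19, Rps24, Rps27a, Rpl10, Rpl22, Rpl38), members named like another plus l with that partner, the 2 largest rises and falls called in each NMDA response and 1 each way in other comparisons, and the 2 highest and 2 lowest in level; genes in a set of 9 or fewer calls are also named, as are Rpl4, Rpl9, Rps7, Rps25, Rpl31, Rps15, Rpl12, Rpl36a and Rps12 and members with many copies, and these were chosen after their values were seen. Alternatives were other pseudocounts, filters, scalings, a length correction (lowess, span 0.3), other estimates of the spread, a replicate block, each library left out, pseudogenes or copies added, the main transcript and the criterion of the study. That criterion here means its unadjusted p and fold thresholds on the limma fits, without edgeR and without its limit on variance-mean ratios. For its comparison across all groups the study named an unadjusted p and an FPKM filter, with no fold threshold. Adding copies by sequence and leaving out both WT NMDA libraries were chosen after seeing the data.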

Additional observations from a re-analysis of the deposited data

Results flagged for a closer look

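The NMDA response of the members differed between the 3 kinds of retina in the test of the difference itself (limma, adjusted p under 0.05). It was larger in WT than in shPax6 in 79 members, with a median difference of 1.66 in log2 fold change, and larger in WT than in JNK3 KO in 79, with a median difference of 2.06. These 2 medians were 0.85 and 0.81 with a correction for gene length, and 0.53 and 0.65 with quantile normalization. Between shPax6 and JNK3 KO the response was larger in shPax6 in 55, with a median difference of 0.41. With a correction for gene length it was larger in 2 and smaller in 5, where 7.15% and 5.74% of all genes were called, with a member median of -0.01.

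Only Rps4l and Rps27 were called in opposite directions in 2 responses. Rps4l, annotated as a pseudogene but with its FPKM in transcripts of other kinds, rose in WT and fell in shPax6. The difference was 2.02 ± 0.14 SE (limma, adjusted p = 7.74e-06). Rps27 rose in WT and shPax6 and fell in JNK3 KO, differences of 2.34 ± 0.11 and 0.69 ± 0.11 (adjusted p = 5.96e-07 and 0.00309), although its fall in JNK3 KO alone was lost whenever a WT or JNK3 KO library was left out.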

How the results depend on the processing

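The rise in WT held under every alternative run, with 79 members higher whichever library was left out and 75 to 80 under the others, while its median of 2.09 ranged from 0.81 to 2.11 across the latter. The larger response of WT held in 61 to 80 members against shPax6 and 67 to 80 against JNK3 KO, and quantile normalization gave 2 members the other way in each. The median difference of 1.66 against shPax6 fell as low as 0.53, and that of 2.06 against JNK3 KO as low as 0.65. The other counts depended on the processing, given here as members higher and then lower. For the shPax6 response (74 and 1), quantile normalization gave 48 higher, the length correction 41, the spread of these groups alone 26 and 0, and the criterion of the study 2 and 0, and leaving out 1 library gave 67 to 74 and 0 to 1. For the JNK3 KO response (9 and 1), TPM gave 2 lower, TPM without mitochondrially encoded genes 18 and 0, quantile normalization 21 and 0, the length correction 32 and 0, the criterion of the study 0 and 0, and no filter, no intensity trend or leaving out both WT NMDA libraries 0 lower; without 1 library the counts were 5 to 11 and 0 to 1. For shPax6 against WT under PBS (5 and 5), no filter gave 3 and 3, TPM 9 lower, TPM without mitochondrially encoded genes 11 lower, quantile normalization 2 and 20, the length correction 9 and 3, no trend 2 and 1, the main transcript 3 lower, and the spread of these groups alone or the criterion of the study 0 and 0; without 1 library they were 1 to 9 and 1 to 6. For JNK3 KO against WT under PBS (33 and 1), no filter gave 11 higher, quantile normalization and the length correction 2, the main transcript 6, no trend 0, copies by sequence 0 lower, and the spread of these groups alone or the criterion of the study 0 and 0; without 1 library they were 0 to 37 and 1. For the shPax6 against the JNK3 KO response (55 and 0), TPM without mitochondrially encoded genes gave 35 higher, 75th percentile scaling 33, no trend 23, the main transcript 25, quantile normalization 14 and 2, the length correction 2 and 5, and the criterion of the study 0, and leaving out 1 library 27 to 59 higher. The cause of these shifts was not tested. As shares of all genes, quantile normalization gave 13.1% higher and 16.6% lower in the shPax6 response, and 5.35% and 5.29% in JNK3 KO. For shPax6 against WT under PBS it gave 6.88% and 9.32%, and for JNK3 KO against WT 0.261% and 0.552%. The length correction gave 13.7% and 15.2%, 3.43% and 5.18%, 7.72% and 8.82%, and 0.395% and 0.213% in the same order. For the shPax6 against the JNK3 KO response they gave 7.69% and 10.1%, and 7.15% and 5.74%.

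Single values changed sign as follows. Rpl3 in shPax6 was -0.05 with quantile normalization and -0.01 with the length correction, Rpl10 in JNK3 KO -0.11 by its main transcript, and Rplp0 in JNK3 KO against WT under PBS 0.42 with its copies. With quantile normalization the response of WT minus shPax6 was -0.23 for Rpl10, -0.14 for Rpl39 and -0.22 for Rplp0, and minus JNK3 KO -0.21 for Rpl10, -0.04 for Rpl3 and -0.24 for Rplp0. With the length correction the response of shPax6 minus JNK3 KO was -0.07 for Rpl10 and Rpl32, -0.01 for Rpl11 and Rps27a, -0.08 for Rpl13a, -0.17 for Rplp1 and -0.03 for Rps6. Of 4127 single-gene values under alternatives, 3696 kept direction and call, 414 lost the call and these 17 reversed.

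Libraries of different groups with the same replicate number did not deviate together (r from -0.097 to 0.086 over 15 pairs of groups), so they share only a number. With the replicate as a block, 0 members fell in JNK3 KO in place of 1, 8 rose, and 26 were higher in JNK3 KO under PBS. Of all genes 5.55% fell, 3.7% rose and 0.722% were higher.

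Over all genes the share of calls that were higher was 43.5% in WT as deposited and 21.4% with TPM, and 63.4% in shPax6 and 44.0% with quantile normalization. Between JNK3 KO and WT under PBS it was 73.1% and 32.1% with quantile normalization.

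Leaving out both WT NMDA libraries and adding copies by sequence were chosen after seeing the data. FPKM carry no read depth, so the counting error of low members is unknown.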
